A study of Mus musculus with 16 samples.

Results

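The KMN network is the set of kinetochore proteins that holds chromosomes to spindle microtubules. It is made of the KNL1 complex (*Knl1*, *Zwint*), the MIS12 complex (*Mis12*, *Dsn1*, *Nsl1*, *Pmf1*) and the NDC80 complex (*Ndc80*, *Nuf2*, *Spc24*, *Spc25*). These 10 genes were chosen by name as the subunits of the 3 complexes, and all 10 were found among the 51912 genes listed in the RNA-seq counts. Unique molecular identifier (UMI) RNA-seq by Click-seq, in which PCR copies of one cDNA molecule are counted once, was carried out on the total cortex of mouse embryos at E15.5. The question of the comparisons was how the transcripts of the network stood when *Knl1* itself was deleted.

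In *Knl1* conditional knockout (cKO) mice, *hGFAP-Cre* deletes *Knl1* (*Casc5* in the labels) in cortical neural progenitor cells (NPCs). In double knockout (dKO) mice it deletes *Knl1* and *Trp53*, the gene of p53. Control (ctrl) mice were wild type for *Knl1* in 5 cases and heterozygous in 2, T4 and T5. There were 7 ctrl, 4 cKO and 4 dKO mice, and cKO mouse S2 had 2 libraries whose counts were added. The Cre driver leaves interneuron lineages undeleted, and the total cortex therefore held undeleted cells in every group. In bulk tissue, fewer dividing cells and less RNA per dividing cell cannot be told apart.

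The mice came from 4 litters and are labelled as 3 batches. Litter 1 held ctrl 2 and 6 and cKO 5 and 7, litter 2 held ctrl S1 and S3 and cKO S2, litter 3 held ctrl T3, T4 and T5 and dKO T2 and T8, and litter 4 held cKO F3 and dKO F1 and F7. Total counts ran from 399832 to 3266227 in the ctrl mice, from 4178461 to 8800987 in the cKO mice, and from 552186 to 5396803 in the dKO mice. The unit of levels is CPM, a count divided by the library total and multiplied to a common scale, after TMM normalization. Without that scaling, 3 counts were 7.50 CPM in T3, the shallowest mouse, and 0.341 CPM in S2, the deepest, and these floors cover counting error only. *Sox2* and *Tubb3* are listed at 0 in every library, while the other progenitor and neuron markers looked up were detected.

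During mitosis, the MIS12 complex sits on the inner kinetochore and binds the other complexes. The NDC80 complex grips the microtubule, and KNL1 is the scaffold on which the spindle assembly checkpoint proteins gather. Most kinetochore genes are transcribed in dividing cells, which in the embryonic cortex are the progenitors of the germinal zones.

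*Knl1* (ENSMUSG00000027326, chromosome 2, 119047119 to 119105501, plus strand, GRCm38) encodes the scaffold. A drawing of the conditional allele places the loxP sites around an exon numbered 7, which was taken here as exon 7 of the GENCODE transcript Knl1-203. Whether both numberings are the same was not tested, and all values for the loss of exon 7 rest on it. The exon is shown in capitals as the part that Cre would remove under this numbering, with 20 bases of the neighboring exons on each side in lower case. It is 53 bases long (chr2:119065949-119066001, plus strand), which is no multiple of 3, in a transcript of 24 exons. The last line shows the join of exons 6 and 8 with the resulting in-frame stop codon in capitals.
Exon 7: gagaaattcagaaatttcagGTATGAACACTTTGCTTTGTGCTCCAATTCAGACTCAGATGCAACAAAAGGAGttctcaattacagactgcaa
Join without exon 7: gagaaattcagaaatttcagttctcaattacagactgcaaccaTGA
Translation of the full transcript gives 2119 codons, and without exon 7 the frame would end after 91 codons. Exon 7 makes up 0.62% of the 8542 merged exon bases of *Knl1*, and exon 8 makes up 52.6%. Counts were made over whole genes, so the loss of exon 7 by itself would take about that share of the *Knl1* count if reads were spread evenly, and the count does not check the deletion.

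The *Knl1* transcript was still present in every knockout cortex. In ctrl it was at 48.7 CPM in the lowest mouse, 68.4 at the median and 80.0 in the highest. The cKO mice 5, 7, S2 and F3 had 51.8, 50.5, 80.4 and 50 CPM. The dKO mice T2, T8, F1 and F7 had 49.7, 58.2, 58.0 and 33.4 CPM. Both knockout groups overlapped ctrl, S2 was far above the other cKO mice, and F7 was the only knockout mouse below all ctrl mice. The log2 fold change of *Knl1* was −0.13 in cKO versus ctrl (SE 0.18, 95% interval −0.47 to 0.22, edgeR likelihood ratio test, FDR of 1). In dKO versus ctrl it was −0.37 (SE 0.20, interval −0.75 to 0.02, unadjusted p = 0.0638, FDR of 1). In cKO versus dKO it was 0.27 (SE 0.22, interval −0.17 to 0.71, FDR of 1). The intervals reach from 0.721 to 1.17 times the ctrl level in cKO and from 0.596 to 1.01 times in dKO.

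The sign of the cKO difference depended on how litters were handled. In litter 1, *Knl1* was at 51.8 and 50.5 CPM in cKO against 48.7 and 49.1 in ctrl. In litter 2 it was at 80.4 CPM in cKO against 68.4 and 72.2 in ctrl. All 3 cKO mice that had ctrl littermates were thus above them. The litter 1 ctrl mice 2 and 6 held 29 and 155 *Knl1* counts, and the differences in that litter lay within counting error. With litter as a covariate the log2 fold change was 0.12 (unadjusted p = 0.431), within batch 1 it was 0.11, and without S2 it was −0.33 (unadjusted p = 0.0416), none of which passed FDR. For dKO, the value was −0.33 with litter as a covariate, −0.50 within batch 3 and −0.16 without F7.

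*Trp53*, the second deleted gene, was between 15.6 and 47.03 CPM in the ctrl mice, 23.97 and 33.3 in the cKO mice and 19.8 and 32.3 in the dKO mice. The groups overlapped, and its log2 fold change in dKO versus ctrl was −0.36 (SE 0.22, FDR of 1).

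**Figure D1:**
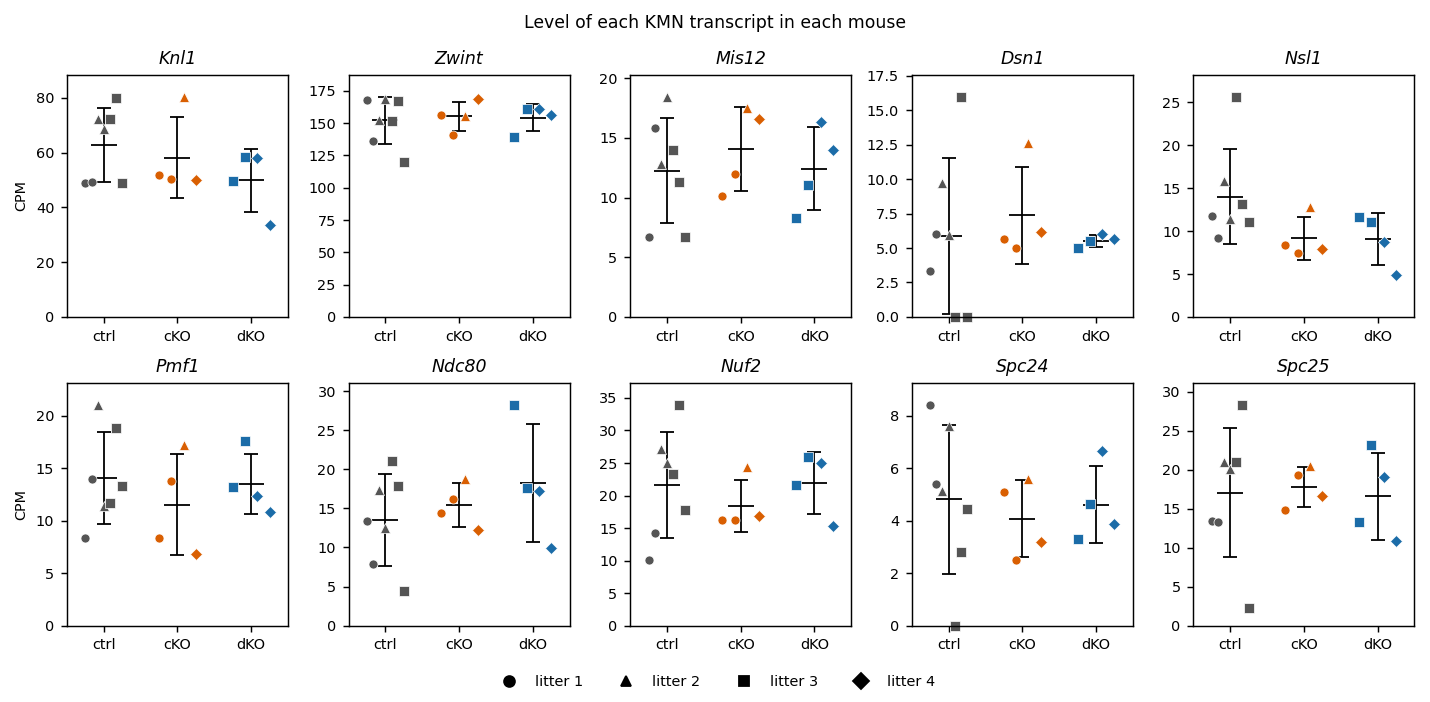
CPM (y axis) of the 10 KMN transcripts in each of the 15 mice, by group (x axis), with the mean and SD as bars and the litter as marker shape. The groups overlap for every gene, and the cKO mouse of litter 2 (triangle) is the highest cKO mouse for all genes but *Zwint*.

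*Zwint*, whose product binds KNL1 and helps to recruit the RZZ complex, stood apart from the other members by its level and steadiness. It was at 120 CPM in the lowest ctrl mouse, 152.1 at the median and 168.9 in the highest. The cKO mice 5, 7, S2 and F3 had 156, 141, 155.7 and 168.7 CPM, and the dKO mice T2, T8, F1 and F7 had 139, 160.8, 160.9 and 156 CPM. No group lay outside another. The log2 fold changes were 0.01 in cKO versus ctrl (SE 0.12, interval −0.22 to 0.24) and 0.03 in dKO versus ctrl (SE 0.13, interval −0.22 to 0.28), the narrowest intervals of the 10 members. Both signs turned under other settings. Over the 15 mice the SD of *Zwint* was 9.16% of its mean, against 23.4% for *Knl1* and between 29.6% and 66.8% for the other 8. Counting error alone gives 7.24% for *Zwint*, 11.99% for *Knl1* and 19.9% to 40.2% for the others.

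Per kilobase of merged exon, the ctrl level was 34.3 ± 4.16 CPM for *Zwint* (SD, n = 7) and 7.35 ± 1.58 for *Knl1*, a ratio of 4.67. *Spc25* (5.35 ± 2.60), *Mis12* (4.08 ± 1.47), *Pmf1* (3.47 ± 1.08) and *Nuf2* (3.41 ± 1.28) followed. *Nsl1* (2.65 ± 1.04), *Ndc80* (2.08 ± 0.900), *Spc24* (1.88 ± 1.103) and *Dsn1* (1.75 ± 1.69) were lowest. Apart from the step from *Zwint* to *Knl1*, neighbors in this order differed by less than the larger of their SDs.

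Of the MIS12 complex, *Nsl1* had the log2 fold changes farthest from 0. It was at 9.18 CPM in the lowest ctrl mouse, 11.8 at the median and 25.7 in the highest, T3, which held 11 counts. The cKO mice 5, 7, S2 and F3 had 8.33, 7.501, 12.9 and 7.96 CPM. The dKO mice T2, T8, F1 and F7 had 11.6, 11.1, 8.75 and 4.85 CPM. In cKO 3 of 4 mice and in dKO 2 of 4 mice were below every ctrl mouse, and the groups still overlapped. The log2 fold change was −0.49 in cKO (SE 0.26, unadjusted p = 0.0599) and −0.70 in dKO (SE 0.32, unadjusted p = 0.0324), with an FDR of 1 in both. With all 8 *Knl1*-deleted mice against ctrl it was −0.60 (unadjusted p = 0.0158, FDR of 1). Without F7 the dKO value was −0.38, and with litter as a covariate the pooled value was −0.33. Leaving out T3, S3 or F7, each alone, left 0 members at an edgeR unadjusted p below 0.05 in either of these 2 comparisons.

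*Pmf1*, another MIS12 subunit, was at 8.40, 13.3 and 21 CPM in the lowest, median and highest ctrl mice. It was at 8.33, 13.8, 17.2 and 6.82 CPM in cKO mice 5, 7, S2 and F3, and at 13.3, 17.6, 12.4 and 10.9 CPM in dKO mice T2, T8, F1 and F7. The cKO mice 5 and F3 were below all ctrl mice, and no dKO mouse was. Its log2 fold change was −0.34 in cKO (SE 0.28) and −0.20 in dKO (SE 0.27).

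*Mis12*, the subunit that names the complex, was at 6.67, 12.8 and 18.5 CPM in the lowest, median and highest ctrl mice. It was at 10.2 to 17.5 CPM in cKO and 8.29 to 16.3 in dKO, both within the ctrl range. The log2 fold changes were 0.06 (SE 0.24) and 0.01 (SE 0.27). *Mis12* shares 231 exon bases, 7.69% of its length, with *Derl2* on the opposite strand, and the strand setting of the counting is not given in the sources used here. *Dsn1*, which connects the complex to the inner kinetochore, had no count in ctrl T3 and T5 and reached 16 CPM in T4. It was at 5.69, 5.00, 12.6 and 6.14 CPM in cKO mice 5, 7, S2 and F3, and at 4.97 to 6.04 CPM in dKO. The log2 fold changes were 0.11 in cKO (SE 0.38) and −0.29 in dKO (SE 0.42), and without S2 the cKO value was −0.33.

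Of the NDC80 complex, *Ndc80* and *Nuf2* form the end that contacts the microtubule. *Ndc80* was at 4.45, 13.4 and 21.01 CPM in the lowest, median and highest ctrl mice, 12.3 to 18.8 in cKO and 9.90 to 28.2 in dKO. The highest value was that of dKO T2, from 17 counts. Its log2 fold change was 0.22 in cKO (SE 0.25) and 0.32 in dKO (SE 0.31). *Nuf2* was at 10.1, 23.3 and 33.9 CPM in ctrl, at 16.3, 16.3, 24.5 and 16.8 CPM in cKO mice 5, 7, S2 and F3, and at 21.6, 25.9, 25.1 and 15.3 CPM in dKO mice T2, T8, F1 and F7. Every knockout mouse lay inside the ctrl range, and the log2 fold changes were −0.26 (SE 0.24) and −0.04 (SE 0.27).

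*Spc24* and *Spc25* form the other end, which docks on the MIS12 complex. *Spc25* was at 2.22, 20.1 and 28.2 CPM in the lowest, median and highest ctrl mice, 14.8 to 20.5 in cKO and 10.9 to 23.1 in dKO. Its log2 fold change was −0.02 in cKO (SE 0.23) and −0.13 in dKO (SE 0.29). *Spc24* was the member with the fewest counts, 198 over all mice, with none in T3. It was at 8.40 CPM or below in ctrl, 2.5 to 5.57 in cKO and 3.32 to 6.64 in dKO, and its log2 fold change was −0.33 in cKO (SE 0.34) and −0.11 in dKO (SE 0.40). For *Spc24* the interval in dKO, −0.89 to 0.67, holds both a drop and a rise of over 1.5-fold, so such differences were not detectable at this depth.

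No member passed FDR < 0.05 in any genotype comparison. Of all genes, 0.16% did in cKO versus ctrl, 0.0501% in dKO versus ctrl, 0.052% in cKO versus dKO and 0.0443% in *Knl1*-deleted versus ctrl. At an unadjusted p below 0.05 and lower, the members counted 0, 1, 0 and 1, the 1 being *Nsl1* in both, against 3.89%, 2.08%, 2.31% and 3.74% of the genes with at least 50 counts. DESeq2 and edgeR's quasi-likelihood F test also called 0 of the 10. The median log2 fold change of the members was −0.07 in cKO and −0.12 in dKO, beside 0.04 and 0.03 over genes with at least 50 counts.

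**Figure D2:**
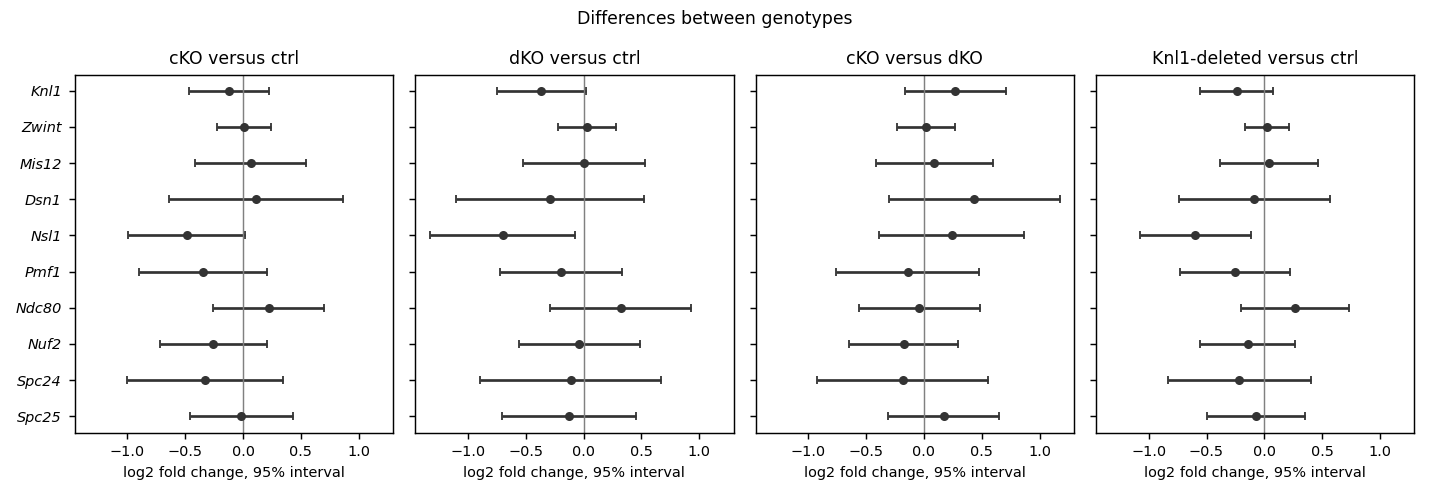
Log2 fold change with 95% interval (x axis) of the 10 KMN transcripts (y axis) in the 4 genotype comparisons, as fitted by edgeR, where the first group named is compared with the second. The intervals of all genes but *Nsl1* include 0 in each panel, and that of *Nsl1* leaves 0 out in dKO versus ctrl and in *Knl1*-deleted versus ctrl.

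Relative to the other members, *Knl1* was lowest in dKO. The log2 CPM of *Knl1* minus the mean of the other 9 members was 1.80 in the lowest ctrl mouse, 1.95 at the median and 2.64 in the highest. It was 1.91, 1.86, 1.99 and 1.86 in cKO mice 5, 7, S2 and F3, and 1.73, 1.75, 1.75 and 1.43 in dKO mice T2, T8, F1 and F7. Every dKO mouse was below every ctrl and cKO mouse, with a gap of 0.06 between the highest dKO and the lowest ctrl mouse. *Knl1* held 30 counts in T2 and 63 in T8. Counting error alone gives 11.99% for *Knl1* over the 15 mice, which is more than this gap. Genes with at least 50 counts were set against the same 9 members in this way. All dKO mice were below every ctrl mouse for 0.138% of them, and below every ctrl and cKO mouse for 0.0218%. The latter share is 3 genes, *Knl1* among them, and is no p-value. The 2 highest ctrl values were those of T3 and T5, the shallowest mice, in which *Dsn1* had no count. These values are a description, with no test.

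The genes of proteins that work with the network were taken from a list of 19 partners. Of these, among them the inner kinetochore subunit *Cenpc1* and the checkpoint kinase *Bub1*, none passed FDR in any of the genotype comparisons, while 17 had a negative log2 fold change in cKO versus ctrl and 17 in dKO versus ctrl. Of the genes with at least 50 counts, 42.9% and 44.9% were negative in these comparisons. These comparisons share their ctrl mice. Within litter 1 the partners summed to 524.3 and 562.6 CPM in cKO against 542.6 and 531.2 in ctrl. Within litter 2 they summed to 701.9 CPM in cKO against 704.8 and 607 in ctrl. Within litter 3 the sums were 571.9 and 640.3 CPM in dKO against 660.6, 630.4 and 673.5 in ctrl. The part of litter in these signs was not tested. *Ttk*, the kinase that phosphorylates KNL1 to start checkpoint signaling, was at 21.6 CPM in cKO against 34.2 in ctrl, a log2 fold change of −0.59 (SE 0.22, edgeR unadjusted p = 0.00841, FDR = 0.566). *Bub1b*, the checkpoint protein BUBR1, was at 33.0 CPM in dKO against 49.0 in ctrl, −0.56 (SE 0.20, unadjusted p = 0.00652, FDR = 0.989). Without S2, *Ttk* passed FDR in cKO at −0.83.

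The lean to negative values was not particular to the partners. Of the markers of dividing cells, 7 of 8 were negative in cKO versus ctrl and 8 of 8 in dKO versus ctrl. Of the 7 apical progenitor markers with counts, 7 were negative in cKO and 5 in dKO, and 0 passed FDR. Of the markers of dividing cells, 0 of 8 passed FDR in either comparison with ctrl. The summed level of these 8 was 515.7 to 983.4 CPM in ctrl, 557.8 to 832.7 in cKO and 497.9 to 863.9 in dKO. Within litter 1 it was 557.8 and 637.6 CPM in cKO against 515.7 and 580.9 in ctrl. Within litter 2 it was 832.7 CPM in cKO against 983.4 and 861.7 in ctrl. Within litter 3 it was 571.9 and 863.9 CPM in dKO against 786.7, 859.1 and 540.2 in ctrl. The gene of smallest p was *Kif11*, a spindle motor, in cKO (−0.25, SE 0.18) and *Ccna2*, cyclin A2, in dKO (−0.63, SE 0.22, edgeR unadjusted p = 0.00419, FDR = 0.853). Of 4 intermediate progenitor markers, *Eomes* (−1.13, SE 0.18, edgeR FDR = 5.06e-06) and *Neurog2* (−1.19, SE 0.25, edgeR FDR = 0.00564) fell in cKO, whereas *Btg2* (−0.23, SE 0.19) and *Insm1* (−0.44, SE 0.23) did not pass. In dKO 0 of 4 passed, with *Neurog2* at −0.64 (edgeR FDR = 0.708). The summed level of the 4 was 146.1 to 209 CPM in ctrl, 79.6 to 152.8 in cKO and 95.9 to 168.2 in dKO. Interneuron markers summed to 382.4 to 806.2 CPM in ctrl, 712.3 to 873.3 in cKO and 542 to 781.7 in dKO. All 6 were positive in cKO versus ctrl, and 1 passed FDR, *Gad1* (0.56, SE 0.14, edgeR FDR = 0.0408). In dKO versus ctrl 4 were positive and 2 negative, and 0 passed. The part of these cell types in the KMN values was not tested.

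Of the 10 members, 3 also differed between litters, a pattern noticed in the levels and then fitted, so its p-values are no independent test. Litters 1 and 2, each with ctrl and cKO mice, were compared with group as a covariate over 7 mice. *Knl1* was at 48.7 to 51.8 CPM in the 4 mice of litter 1 and at 68.4 to 80.4 in the 3 mice of litter 2. The log2 fold change of litter 2 over litter 1 was 0.61 (SE 0.13, edgeR FDR = 0.000961). *Nuf2* was at 10.1 to 16.3 CPM against 24.5 to 27.2, a log2 fold change of 0.76 (SE 0.19, edgeR FDR = 0.00779). *Dsn1* was at 3.36 to 6.02 CPM against 5.97 to 12.6, with 1.00 (SE 0.29, edgeR FDR = 0.0334), and its litters overlapped.

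These 3 of 10 members passed FDR, beside 0.572% of all genes and 2.12% of those with at least 50 counts that passed in the same direction. All 10 members had a positive value, with a median of 0.51 against 0.02 over genes with at least 50 counts, of which 52.9% were positive. *Knl1*, *Nuf2* and *Spc25* were higher in every litter 2 mouse than in every litter 1 mouse, as were 7.25% of such genes. *Zwint* had the smallest value, 0.11 (SE 0.12), with 136.4 to 168 CPM in litter 1 and 152.1 to 168.9 in litter 2. The calls rest on S2, the deepest mouse. Without S2, 0 members passed and *Knl1* was at 0.53 (edgeR FDR = 0.580), and without S3 only *Knl1* passed.

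**Figure D3:**
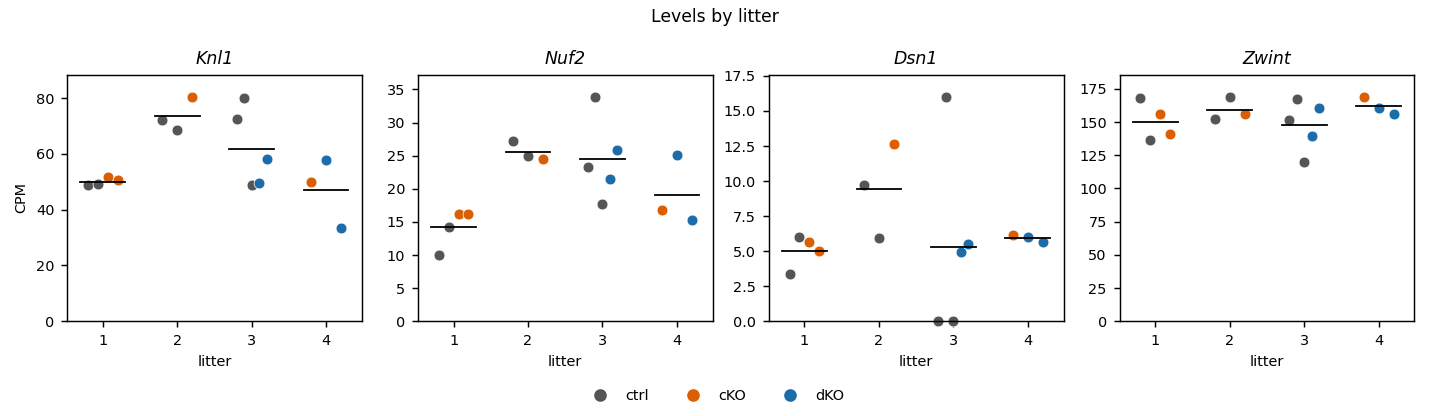
CPM (y axis) of *Knl1*, *Nuf2*, *Dsn1* and *Zwint* in each mouse by litter (x axis), colored by group, with the litter mean as a line. *Knl1* and *Nuf2* do not overlap between litters 1 and 2, in ctrl as in cKO mice, whereas *Zwint* does.

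Of the dividing cell markers 7 of 8 passed FDR between these litters and were higher in litter 2, and their summed level was 515.7 to 637.6 CPM in litter 1 and 832.7 to 983.4 in litter 2. Of the 19 partners 6 passed, all higher, among them *Kntc1* of the RZZ complex (0.96, SE 0.18) and *Ska1* of the SKA complex, which follows microtubule ends (1.24, SE 0.28). Of the apical progenitor markers 3 of 7 passed, *Pax6* (0.82, SE 0.14), *Hes1* (1.24, SE 0.28) and *Hes5* (1.32, SE 0.35), all higher, and the other 4 lay between −0.34 for *Slc1a3* and 0.40 for *Nes*. Litter 1 was of batch 1, and litter 2 of batches 1 and 2, with S1 in batch 2. The fit without S1 held mice of batch 1 only. In that fit, as in each fit without 1 mouse, the log2 fold change of *Knl1* was between 0.53 and 0.64. Batch was not tested in any other way, and depth was not tested.

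**Figure D4:**
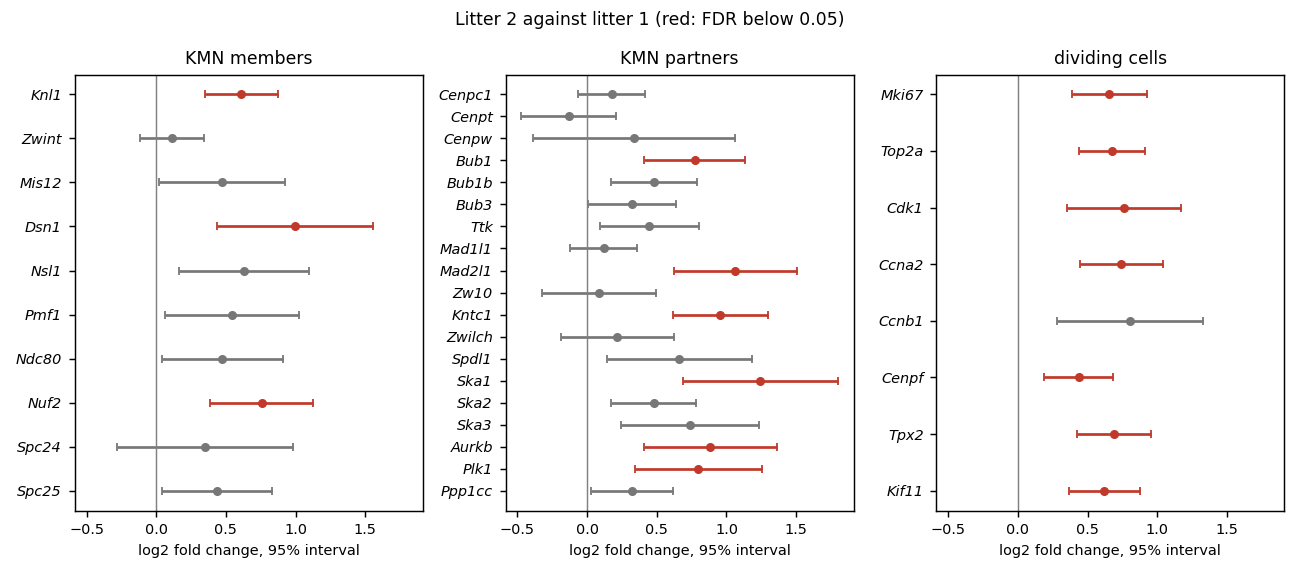
Log2 fold change of litter 2 over litter 1 with 95% interval (x axis) for the KMN members, their 19 partners and 8 markers of dividing cells (y axis), with red for an edgeR FDR below 0.05. All 10 members lie above 0, and *Zwint* lies lowest of them.

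The genes most like *Knl1* over the 15 mice were *E2f3*, *Ostm1*, *Iqgap2*, *Lockd* and *Cep128*. The measure was the root mean square difference in centered log2 CPM, among 3941 genes with a mean CPM between 0.5 and 2 times that of *Knl1*. It was 0.163 for *E2f3*, a transcription factor of the cell cycle, and 0.198 for *Cep128*, a centriole protein, beside a median of 0.407 over those genes. No other member had a mean CPM in that range, so none could be listed.

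As *Knl1*, *Nuf2* and *Dsn1* passed FDR between litters, though not without S2, the promoters of the members were searched for motifs of cell cycle genes. RefSeq windows on GRCm38.p6, from 250 bases before to 50 after the start, were at hand for 8 members, but not for *Nsl1* and *Spc24*. The CHR element (TTTGAA, both strands) was in the windows of *Knl1*, *Spc25*, *Pmf1* and *Ndc80*, and in 17.9% of all 32851 windows. Those of *Knl1*, beginning at base 32 after the start, and *Spc25*, at base 25, are shown with the motif in capitals, for *Knl1* at chr2:119047138-119047167 on the plus strand and for *Spc25* at chr2:69206172-69206201 on the minus strand.
Knl1: agggcggttagaTTTGAAtacttcagggac
Spc25: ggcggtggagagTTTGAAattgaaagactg
A CCAAT box (CCAAT, both strands) was in the windows of *Spc25*, *Pmf1*, *Zwint* and *Mis12* and in 37.4% of all windows. An E2F motif (TTTNNCGC, both strands) was in that of *Dsn1* alone among the members and in 5.17% of all windows. The window of *Nuf2* held none of these motifs, and *Spc25* had not passed FDR between litters. These matches are a description of the letters and show no binding.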

How the data were processed

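UMI RNA-seq counts of E15.5 cortex were analyzed from 16 libraries of 15 mice. Per the submitters' processing notes and the methods, adapters were removed with cutadapt 1.13, reads aligned to mm10 with STAR 2.5.2a, PCR duplicates collapsed with UMI-tools 0.5.3 and genes quantified with HTSeq 0.6.1p1 (intersection-nonempty). The authors deposited raw counts per gene for each library. Reads that map to several places were discarded by the authors, which lowers genes with near-identical copies. The annotation release and strand setting are not given in the sources used here.

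The 5 summary lines of each file were left out, and the 2 libraries of S2 were added. Symbols, coordinates and merged exon lengths were taken from GENCODE M21, which matched 51633 of the 51912 genes. Groups, litters and batches were taken from the labels. Each comparison was fitted on its own mice with edgeR 4.0.16 in R 4.3.3, with TMM, estimateDisp, glmFit and likelihood ratio tests over all listed genes, without covariates, and Benjamini–Hochberg FDR. SEs are Wald errors at the fitted dispersion, and intervals are at 95%. The fits were tested on simulated data. P-values treat littermates as independent mice.

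The members and lists were chosen with earlier results of these data known. Named genes are the 10 members, partners at an unadjusted p below 0.05 (at most 3 per comparison and direction), the gene of smallest p of a marker list where a value is given, the 5 genes nearest to *Knl1* and *Trp53*. Genes named from the litter comparison were chosen after their values were seen. Alternatives were the quasi-likelihood F test, DESeq2 1.42.0, RLE size factors, filterByExpr, batch or litter as a covariate, one batch, one fit of 3 groups, wild-type ctrl only, library S2 alone, a prior count of 0.5 and leaving out each mouse. The litter comparison and the fit without F1 and F7, the dKO mice of litter 4, were added after seeing the data. Promoter windows came from RefSeq. Figures were drawn with matplotlib 3.10.9.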

Additional observations from a re-analysis of the deposited data

Results flagged for a closer look

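Each member in each group gave a set of values, 30 in all. In 5 of them, 1 mouse lay far from the others of its group by Dixon's criterion. The nominal rate of about 1 in 20 holds for independent sets, and these sets share their mice. The share of all genes flagged in this way was not counted, so no excess is claimed. The cKO mouse S2 accounted for 4 of the 5 flagged sets. *Knl1* was at 80.4 CPM in S2, and the nearest cKO mouse was at 51.8. *Dsn1* was at 12.6 CPM, with the nearest at 6.14. *Nsl1* was at 12.9 CPM, with the nearest at 8.33, and *Nuf2* at 24.5 CPM, with the nearest at 16.8. The 2 libraries of S2 gave *Knl1* at 83.1 and 76.9 CPM, and its ctrl littermates S1 and S3 were at 68.4 and 72.2. The other was *Nsl1* in ctrl T3, at 25.7 CPM from 11 counts, with the nearest ctrl mouse at 15.9. No explanation for these values was tested.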

How the results depend on the processing

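Under all alternatives run for the 4 genotype comparisons, 0 members passed FDR. Leaving out single mice moved the *Knl1* log2 fold change between −0.33 and −0.04 in cKO versus ctrl, −0.50 and −0.16 in dKO versus ctrl and 0.05 and 0.37 in cKO versus dKO. It turned to 0.12 in cKO versus ctrl with litter as a covariate and to 0.11 in batch 1 only. Other signs turned as follows, all without passing FDR, and the cause was not tested. With litter as a covariate, cKO versus ctrl gave *Zwint* −0.0275, *Mis12* −0.083, *Nuf2* 0.072, *Spc25* 0.16 and *Kif11* 0.023, and dKO versus ctrl gave *Mis12* −0.10, *Pmf1* 0.028 and *Spc24* 0.68. With batch as a covariate, *Spc25* was 0.040 in cKO and *Spc24* 0.90 in dKO. In batch 1 only, cKO versus ctrl gave *Nuf2* 0.091, *Spc25* 0.19 and *Kif11* 0.0027, and in batch 3 only *Spc24* was 0.89 in dKO versus ctrl and *Nsl1* −0.020 in cKO versus dKO. *Zwint* in cKO versus ctrl was −0.035 with DESeq2, −0.038 with RLE and −0.041 with filterByExpr, and in cKO versus dKO −0.036 with DESeq2, −0.034 with RLE, −0.043 with filterByExpr, −0.000790 in one fit of 3 groups and −0.00386 with library S2 alone. *Mis12* in dKO versus ctrl was −0.00659 with DESeq2, −0.00846 with RLE and −0.00501 with filterByExpr. *Spc25* in cKO versus ctrl was 0.024 with library S2 alone. With wild-type ctrl mice only, *Mis12* was −0.014 and *Spc25* 0.040 in cKO, and *Mis12* −0.0984 and *Nuf2* 0.0782 in dKO. Without F1 and F7, dKO versus ctrl gave *Zwint* −0.0099, *Mis12* −0.42, *Pmf1* 0.10, *Nuf2* 0.13 and *Spc25* 0.094, and cKO versus dKO gave *Nsl1* −0.27, *Spc24* 0.032 and *Spc25* −0.10. Leaving out single mice also turned signs, within −0.031 to 0.075 for *Zwint*, −0.079 to 0.19 for *Mis12*, −0.33 to 0.43 for *Dsn1* and −0.13 to 0.12 for *Spc25* in cKO versus ctrl. In dKO versus ctrl the ranges were −0.011 to 0.063 for *Zwint*, −0.15 to 0.14 for *Mis12*, −0.41 to 0.019 for *Dsn1*, −0.18 to 0.16 for *Nuf2*, −0.40 to 0.068 for *Spc24* and −0.30 to 0.10 for *Spc25*. In cKO versus dKO they were −0.030 to 0.062 for *Zwint*, −0.086 to 0.22 for *Mis12*, −0.029 to 0.58 for *Dsn1*, −0.062 to 0.38 for *Nsl1*, −0.44 to 0.053 for *Pmf1*, −0.30 to 0.14 for *Ndc80*, −0.42 to 0.089 for *Spc24* and −0.074 to 0.32 for *Spc25*.

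Between litters, leaving out single mice gave 0 to 3 members called, with 0 without S2, and *Knl1* between 0.53 and 0.64. The quasi-likelihood F test and RLE size factors each called 3. The labels give no replicate numbers shared between groups, but they give shared litters. With litter as a covariate, 0 members passed, and the genes called over all genes were 120 against 83 in cKO versus ctrl and 4 against 26 in dKO versus ctrl. Depth limits *Spc24* and *Dsn1* most, and ctrl mice were shallower than every cKO mouse.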
